A study of Rattus norvegicus with 10 samples.

Results

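Aspirin was compared with control in rat gastric mucosa. The comparison rests on 4 of the 10 libraries of the study, 2 from aspirin-treated Sprague Dawley rats and 2 from controls, taken by their labels. Aspirin was given by mouth at 400 mg/kg and its time label is 4 h. The control labels name no treatment, and no vehicle is stated. The remaining libraries came from rats given diclofenac at 75 mg/kg, indomethacin at 48 mg/kg, or honokiol at 40 mg/kg before indomethacin at 48 mg/kg, and they entered the fit that estimated the spread between libraries. No genotype or age is given for any of these groups. The labels do not state whether replicate libraries are separate animals, so the p-values below describe spread among these libraries. For the 2 aspirin libraries that spread may be technical. The 2 controls differed in Y-chromosome counts, given below, so they are not repeats of 1 RNA sample. In bulk mucosa, fewer cells of a type and less RNA per cell cannot be told apart.

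Aspirin is a salicylate that blocks cyclooxygenases by acetylating them, an irreversible block, whereas diclofenac and indomethacin bind the same enzymes without acetylating them. Cyclooxygenases make prostaglandins. In the stomach, prostaglandins sustain mucus and bicarbonate secretion and mucosal blood flow, and loss of these is a textbook route to gastric injury by this drug class.

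The features counted are Ensembl genes, given in the files by identifier, exon coordinates and length. The files do not pair these identifiers with names, and 0 of 32623 identifiers matched the table of gene symbols used here. Features are therefore described by chromosome, start, end, exon number and length, in a genome build not given in the sources used here, and functions are stated only for the mitochondrial genome. For the same reason the labelled cell type, epithelial cells, was not checked against markers. Exon numbers count distinct exon coordinates and may sum over several transcripts.

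The control libraries held 35617694 and 32198888 counts and the aspirin libraries 23892226 and 39513038, over 19478 to 20389 features with at least 1 count. The 2 controls correlated at r = 0.963 and the 2 aspirin libraries at r = 0.966 across features in log2 CPM (counts scaled to a common library total), and libraries of different groups at 0.895 to 0.936. Features are not independent replicates, and these values are descriptions. Counts on 7 Y-chromosome features were 3582 in control replicate 1, 1 in control replicate 2 and 0 in both aspirin libraries. A model with a term for such Y reads was therefore fitted as well for aspirin against control, and its values are given beside those results.

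Of 16346 features tested, 2903 differed between aspirin and control (17.8%), at an adjusted p under 0.05 in edgeR's quasi-likelihood test. Of these, 1553 were higher (9.5%) and 1350 lower (8.26%) after aspirin. Rises reached further than falls. The median log2 fold change was 1.45 among features called higher and -0.96 among those called lower, against 0.00 over all features tested. A log2 change of at least 2 was reached by 415 rises and 34 falls, and one of at least 3 by 173 rises and 8 falls. Control counts were 0 for 21 of the features called higher. With these set at the bound that a floor of 3 counts over the group allows, the rises of at least 2 numbered 414 and those of at least 3 numbered 161. Of the 1553 features called higher, 259 lay under 1 CPM in both controls and at 1 CPM or more in both aspirin libraries. Of the 1350 called lower, 34 did the opposite. The median average level was 2.35 log2 CPM among features called higher and 3.75 among those called lower. The share of all tested features that crossed 1 CPM was not computed, and the part of level in these counts was not tested.

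The number of calls depended on single libraries. Without control replicate 1 there were 467 calls, 334 of them higher and 133 lower, and without aspirin replicate 1 there were 462, of which 393 were higher and 69 lower. Leaving out control replicate 2 gave 2312 calls and leaving out aspirin replicate 2 gave 3606. With the term for Y reads 683 features were called (4.18%), 484 higher (2.96%) and 199 lower (1.22%). Of the features called without that term, 662 were called in the same direction with it, 472 higher and 190 lower. Both aspirin libraries lay above both controls for 4974 of the features tested (30.4%) and below both for 4931 (30.2%).

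**Figure D1:**
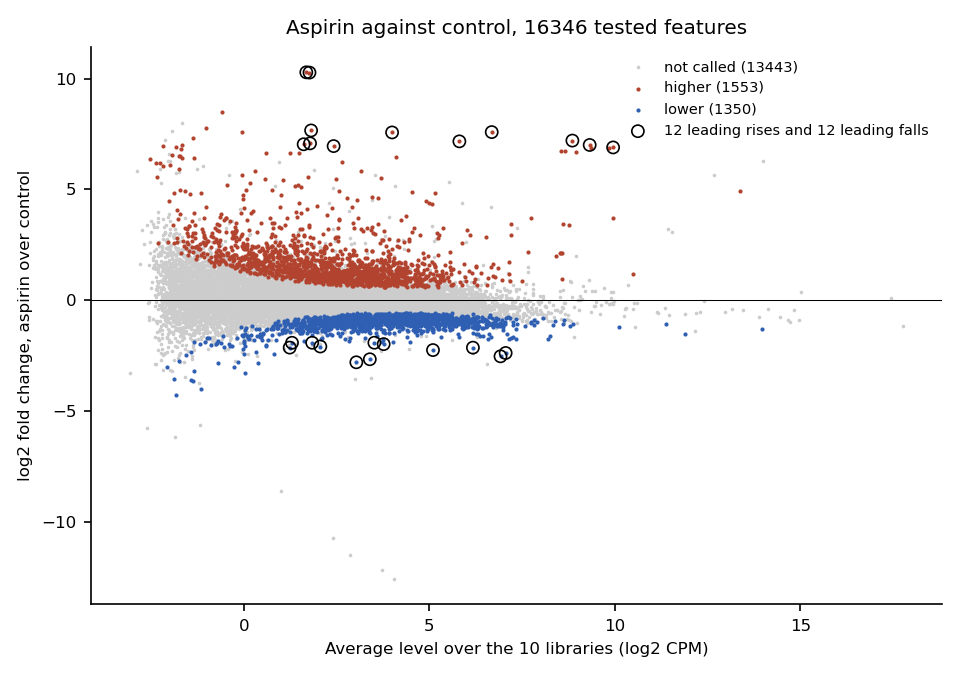
Each point is 1 of the 16346 tested features, with its average level over the 10 libraries (log2 CPM) on the x axis and its log2 fold change of aspirin over control on the y axis; red marks the 1553 called higher, blue the 1350 called lower, grey the rest, and circles the leading features of each direction. Plotted rises extend to 10.28, a fitted value for a feature with 0 control counts whose true size is not measured. Called falls extend to -4.27, and the isolated grey points at the bottom are not called.

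The 12 leading rises were taken by fold change among called features whose average log2 CPM reached 1 and whose groups did not overlap. Their values were used to choose them and describe the order only. ENSRNOG00000002843 came first (chromosome 14, 18860264 to 18862407, minus strand, 4 exons). It had 0 counts in both controls, 1.99 CPM in aspirin replicate 1 and 6.79 CPM in replicate 2, where CPM values are scaled by TMM factors. This was at least 101-fold higher than the floor of 3 counts over the controls (edgeR adjusted p = 0.00253, and 0.0158 with the term for Y reads). ENSRNOG00000010278 (chromosome 4, 3043231 to 3047807, plus strand, 5 exons) also had 0 counts in both controls, against 2.13 and 6.58 CPM after aspirin, at least 99.4-fold higher (edgeR adjusted p = 0.0208, and 0.0717 with the term). Both passed the low-count filter and the average level cut only through libraries other than the controls. Their contrast with the controls therefore follows from how they were chosen. Their first places rest on fitted fold changes, whose size is not measured where control counts are 0.

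In the third place was a 10-exon feature on chromosome 3 (171213936 to 171219871), with 1 count in each control and 5.04 and 9.44 CPM after aspirin. Its ratio of summed counts, scaled for library size, was 238, with an exact 95% Poisson interval from 65.5 to 1969 that covers counting error only. It is the only one of the 12 rises that was called under each of the 17 other settings tried. Next was a 38-exon feature on chromosome 6 (127941526 to 128080889), which went from 1.33 and 0.501 CPM to 85.5 and 268 CPM, 7.58 ± 1.45 (SE) on the log2 scale with an edgeR adjusted p of 0.0237. On chromosome 8 (5522739 to 5533018) a 10-exon feature rose from 0.126 and 0 CPM to 3.90 and 12.9 CPM. In these 5 features aspirin replicate 2 was above replicate 1.

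The reverse order held for a 30-exon feature on chromosome 1 (221792221 to 221908049). It lay at 0.0632 and 0.1 CPM in controls, 14.5 CPM in aspirin replicate 1 and 8.38 CPM in replicate 2, with a log2 fold change of 7.07 ± 1.75 (edgeR adjusted p = 0.042). Its adjusted p was 0.153 with the term for Y reads. Among the 12 leading rises, 4 were called with that term, the 3 on chromosomes 14, 3 and 6 given above and 1 on chromosome 4 (109477920 to 109480659). Leaving out control replicate 1 kept 2 of the 12 calls, leaving out control replicate 2 kept 3, and leaving out aspirin replicate 1 kept 6.

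The 12 leading falls were smaller than the leading rises. ENSRNOG00000052180, with 1 exon of 274 nt (chromosome 3, 75024206 to 75024479), lay at 16.1 and 13 CPM in controls and 2.39 and 1.80 CPM after aspirin. Its log2 fold change was -2.80 ± 0.25 (edgeR adjusted p = 0.000846, and 0.00223 with the term for Y reads). ENSRNOG00000016953 (chromosome 19, 41631715 to 41640367, 2 exons) fell from 20.9 and 19.6 CPM to 3.94 and 2.49 CPM, a log2 fold change of -2.67 ± 0.39 (edgeR adjusted p = 0.00477). In both, each control lay several times above each aspirin library.

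A pair of single-exon features of 270 nt on the minus strand of chromosome 12 followed. The first (7115820 to 7116089) had 200 and 178 CPM in controls and 34 and 31.4 CPM after aspirin, and the second (7353632 to 7353901) 218 and 194 CPM against 39.9 and 39.2 CPM. Equal length and near-equal values in every library leave it uncertain whether they share reads. Their log2 fold changes were -2.53 ± 0.38 and -2.38 ± 0.37. On chromosome 2 a 9-exon feature (243502073 to 243516532) went from 62.8 and 39.1 CPM to 12.6 and 8.85 CPM, a log2 fold change of -2.25 ± 0.28 (edgeR adjusted p = 0.00253). A 3-exon feature of chromosome X (111884295 to 111887906) had 115 and 182 CPM in controls and 35.6 and 31.6 CPM after aspirin, with an edgeR adjusted p of 0.0171, and 0.0618 with the term for Y reads.

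The other leading falls lay on chromosomes 9, 10, 14, 19 and 5. A 7-exon feature of chromosome 14 (22142364 to 22155231) went from 33 and 14.3 CPM to 4.75 and 7.15 CPM, and a 12-exon feature of chromosome 19 (37025375 to 37034285) from 4.26 and 4.01 CPM to 1.14 and 1.04 CPM. Of the 12 falls, 9 were called with the term for Y reads, and 8 without control replicate 1 and 8 without aspirin replicate 1. The falls on chromosomes 19 (41631715 to 41640367) and 2 (243502073 to 243516532) were called under each of the 17 other settings. Those on chromosomes 3 and 12 and that on chromosome 5 (74897005 to 74897291, 287 nt, 1 exon) were called under each of 16, since the setting without short single-exon features gave them no value.

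**Figure D2:**
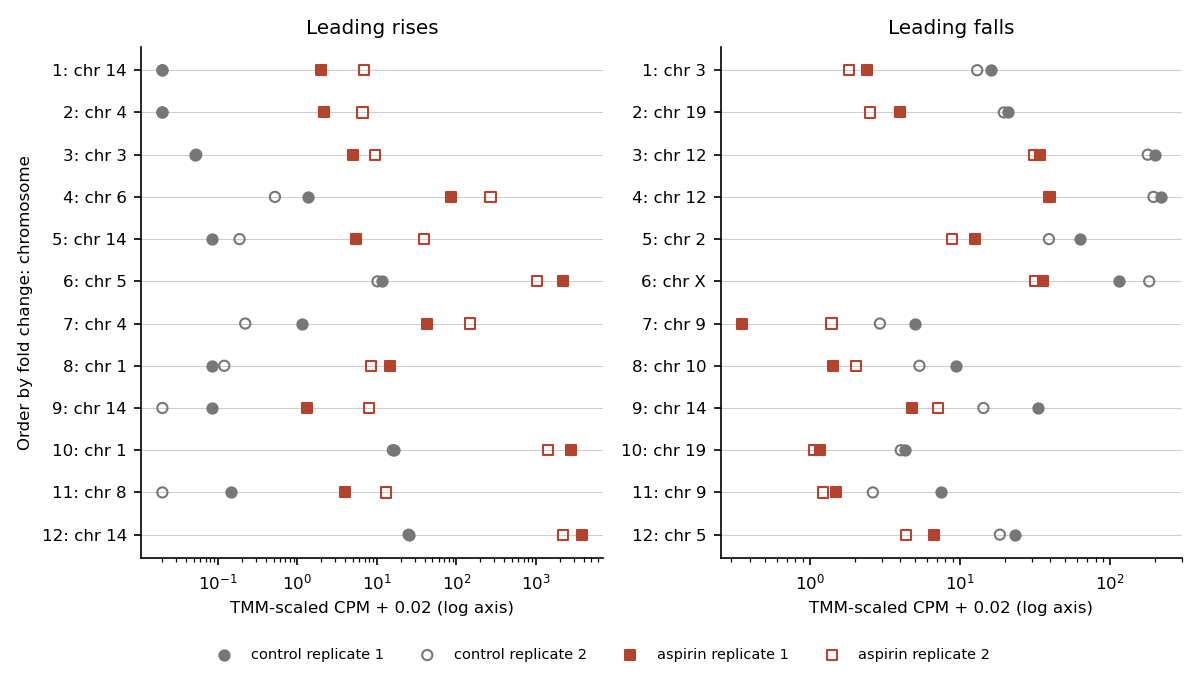
TMM-scaled CPM plus 0.02 on a log axis for the 12 leading rises (left) and the 12 leading falls (right), 1 row per feature in order of fold change with its chromosome; grey circles are controls and red squares aspirin, filled for replicate 1 and open for replicate 2. Control and aspirin values of a row do not overlap because features were chosen that way. The aspirin replicates of the rises lie further apart than those of most falls.

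Called features were also read along the chromosomes. A run was defined, after values had been seen, as at least 4 neighbouring tested features called in 1 direction. There were 17 runs with 75 features, and 10 of the runs were higher and 7 lower. By this definition every tested feature within a run is called, so counts of called features in a run restate it. Over all tested features, 9.5% were called higher and 8.26% lower. Whether calls cluster along chromosomes was not tested. Neighbouring genes can be copies that share reads, so single values within a run are uncertain, and whether any of these features do was not tested.

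The run with the largest rises lay on the minus strand of chromosome 14 (18731378 to 18862407) and holds 5 called features, among them the first leading rise. Their summed level was 0.568 and 0.468 CPM in controls, 10.1 CPM in aspirin replicate 1 and 59.0 CPM in aspirin replicate 2. The feature at 18743685 to 18745457 made up most of it, with 0.0632 and 0.167 CPM against 5.45 and 38.8 CPM and a log2 fold change of 7.57 ± 1.53 (edgeR adjusted p = 0.0271). The feature at 18731378 to 18733391 held 2 counts in controls, which gave a ratio of 165 with an exact 95% interval from 45.5 to 1372. At 18820168 to 18839595 the controls held 1 count and the ratio was 134, with an interval from 23.7 to 5327. The smallest change, 2.04 ± 0.55 on the log2 scale, was in the 3-exon feature at 18848549 to 18849258. In all 5, aspirin replicate 2 exceeded replicate 1, and 1 of the 5 was called with the term for Y reads.

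A second strong run was on chromosome 4 (109477920 to 109532234), with 4 of 4 features also called with the term for Y reads. The 6-exon feature at 109477920 to 109480659 rose from 1.11 and 0.2 CPM to 42.1 and 148 CPM, a log2 fold change of 7.17 ± 1.11 (edgeR adjusted p = 0.0131). Next to it, at 109497962 to 109501082, another 6-exon feature rose from 35.6 and 18.4 CPM to 182 and 521 CPM (3.70 ± 0.63, adjusted p = 0.0099). The third, a single-exon feature (109528316 to 109529034), had 1 count in controls and a ratio of 34.6, with an interval from 5.86 to 1401. The fourth, with 6 exons (109529679 to 109532234), rose from 4.20 and 0.802 CPM to 30.1 and 71.3 CPM (4.34 ± 1.08, adjusted p = 0.0428). Summed over the run, controls had 41.0 and 19.4 CPM and aspirin libraries 255 and 741 CPM.

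On chromosome 13 (82355471 to 82535534) all 4 features of a run lie on the plus strand. The first had 0 counts in both controls and 0.626 and 0.308 CPM after aspirin, at least 8.87-fold higher. The others had log2 fold changes of 3.76 ± 0.71, 5.48 ± 0.98 and 1.96 ± 0.60 (SE). A run on the minus strand of chromosome 9 (14646151 to 14809447) had summed levels of 0.347 and 0.2 CPM in controls and 1.99 and 3.05 CPM after aspirin, with 1 of its 4 features called with the term for Y reads. Chromosome 18 held 4 adjacent single-exon features of 2415 to 2427 nt on 1 strand (30890869 to 30906924), with log2 fold changes from 1.63 to 1.83 and none called with that term.

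A run of chromosome 12 (36594047 to 37033701) contains a 2-exon feature at 36638457 to 36642734 with 656 and 941 CPM in controls and 1593 and 2080 CPM after aspirin. Its log2 fold change was 1.20 ± 0.37 (edgeR adjusted p = 0.0436, and 0.133 with the term for Y reads). The remaining rising runs lay on chromosomes 1, 3 and 7, with median log2 fold changes from 1.04 to 2.11.

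Falling runs had smaller changes. The one with the most features spans 439 kb of chromosome 17 (69634890 to 70073530), with 7 called features of 11 listed there and a median log2 fold change of -1.16. Summed over the 7, controls had 474 and 445 CPM and aspirin libraries 171 and 241 CPM. The strongest of them, a 10-exon feature at 69654170 to 69675203, fell from 49.9 and 57.7 CPM to 16.6 and 23.2 CPM (-1.43 ± 0.25, edgeR adjusted p = 0.00732).

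Chromosome 9 held a pair of falling runs close together. Between 4072823 and 4327679 the run took in all 5 listed features, with a median log2 fold change of -1.70. Their summed levels were 696 and 605 CPM in controls against 180 and 233 CPM after aspirin. Between 4440982 and 4978892 the run took in 6 of 7 listed features, with a median of -1.59. Their summed levels were 718 and 663 CPM against 203 and 276 CPM. The largest change there was in a 10-exon feature (4807717 to 4834335), from 242 and 187 CPM to 54.1 and 72.8 CPM (-1.76 ± 0.29, edgeR adjusted p = 0.00602). Of the 11 features in both runs, 7 were called with the term for Y reads, 3 in the first and 4 in the second. Several listed features of the first run overlap in position, and how reads in the overlaps were assigned is unknown. Other falling runs lay on chromosomes X, 2 and 11, with median log2 fold changes from -1.06 to -0.76.

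**Figure D3:**
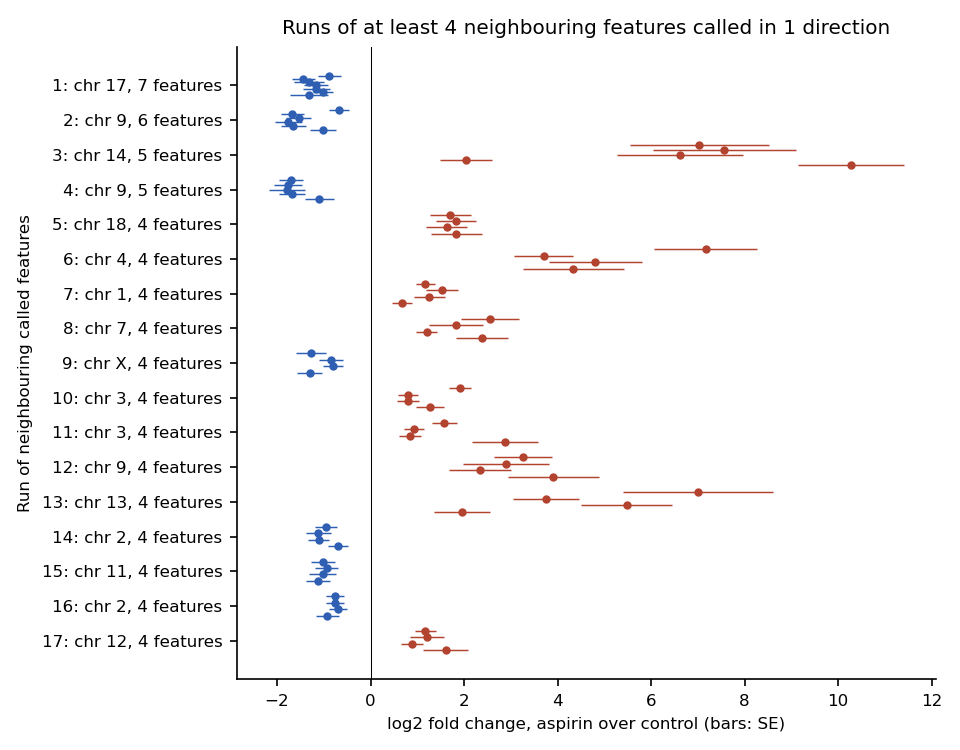
Log2 fold change of aspirin over control with its SE (bars) for each of the 75 features in the 17 runs, 1 row per run; red runs were higher and blue runs lower. The runs of chromosomes 14, 4 and 13 hold the largest rises, while falling runs keep to a narrow band whose medians lie between -1.70 and -0.76.

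Some features changed as groups of equal length. All 8 single-exon features of 49 nt in the files were tested and all 8 were higher after aspirin, where 9.5% of all tested features were. They lie on chromosomes 1, 5, 6 and 14, 4 of them on chromosome 14. The feature at 91140930 to 91140978 of chromosome 5 had 11.6 and 10.2 CPM in controls and 2179 and 1025 CPM after aspirin, a log2 fold change of 7.20 ± 1.24 (edgeR adjusted p = 0.0153). On chromosome 14, the one at 46652302 to 46652350 had 25.4 and 25 CPM against 3769 and 2213 CPM (6.89 ± 1.40, adjusted p = 0.0239). The log2 fold changes of the 8 ran from 6.69 to 7.20. Such equal values in features of 1 length leave it uncertain whether they share reads, and they are not independent of each other.

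Together these 8 features took 0.0120% of all counts in controls (SD 1.86e-05, n = 2 libraries) and 1.72% ± 0.566 (SD, n = 2) after aspirin. Their summed level was 135 and 129 CPM in controls and 18676 and 12383 CPM after aspirin. The level differed between diclofenac libraries, at 12957 CPM in replicate 1 and 910 CPM in replicate 2. Indomethacin libraries had 1289 and 2827 CPM and those with honokiol before indomethacin 82.2 and 82.0 CPM. None of the 8 was called with the term for Y reads, with adjusted p from 0.0693 to 0.0949, while their log2 fold changes with it lay between 6.27 and 7.10. None was called without control replicate 1, without control replicate 2 or without aspirin replicate 1 either, and 7 were called without aspirin replicate 2.

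Multi-exon loci at or near some of these positions took a larger share. Those given here are 3 loci picked by their shares in these same libraries. Together they took 0.161% ± 0.0127 of counts in controls and 9.63% ± 1.51 after aspirin (SD, n = 2 each). With diclofenac they took 12.1% in replicate 1 and 0.652% in replicate 2, and with indomethacin 1.02% and 1.42%. Libraries with honokiol before indomethacin had 0.142% and 0.248%. At 46523594 to 46529375 of chromosome 14, a 7-exon feature had a log2 fold change of 4.93 ± 1.02 (edgeR adjusted p = 0.0188, and 0.0851 with the term for Y reads). Its neighbour at 46653040 to 46657975 (3 exons) had 5.63 ± 1.73 and an adjusted p of 0.068, and a 5-exon feature of chromosome 1 (11963836 to 11968939) had 6.30 ± 1.77 and 0.054. Only the first of these was called. Both loci of chromosome 14 span a 49-nt feature of the other strand, and whether they share reads was not tested.

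Other equal-length groups were less uniform. Of 8 tested features of 153 nt, 4 were higher (50%, against 9.5% of all tested features), 3 of them with near-equal values in every library. The one at 11970092 to 11970244 of chromosome 1 had 222 and 79.2 CPM in controls and 736 and 575 CPM after aspirin (2.12 ± 0.54, edgeR adjusted p = 0.028). None of 6 tested features of 57 nt was called, although their median log2 fold change was 2.91. Their summed level was 840 and 2211 CPM in controls and 17017 and 8028 CPM after aspirin, so the groups did not overlap but the replicates differed widely. Features of 134 nt were higher in 6 of 20 tested (30%).

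Lower calls were also counted by length, to be read against the 8.26% of all tested features that were lower. At 483 nt, 5 of 13 tested features were lower (38.5%), with a median log2 fold change of -0.80. That length was picked after values were seen, as the highest share lower among 44 lengths with at least 6 tested single-exon features. For 107 nt, 392 features are listed, 22 were tested and 3 were lower (13.6%), a share near that background, with a median of -1.41 and summed levels of 18.9 and 16.4 CPM in controls against 3.61 and 9.16 CPM after aspirin. None of the features of 483 or 107 nt was called with the term for Y reads. Over a range of lengths, single-exon nuclear features of 251 to 310 nt were lower in 12 of 105 tested (11.4%), also near the background, and higher in 3 (2.86%).

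The mitochondrial genome encodes subunits of the respiratory chain and of ATP synthase, with the ribosomal and transfer RNAs needed to translate them. The files list 37 features on it, whose order and strand (37 of 37) are those of the vertebrate mitochondrial genome, and the names used here rest on that order. Mitochondrial features took 35.6% ± 0.763 of counts in controls and 23.3% ± 0.721 after aspirin (SD, n = 2 each). Most of this was the 2 ribosomal RNA positions, at 32.3% and 32.4% in controls and 21.2% and 20.2% after aspirin. The 13 protein-coding positions took 2.80% and 3.75% in controls and 2.61% and 2.55% after aspirin. Ribosomal RNA had been depleted before sequencing, and the part of that step in these shares was not tested. Of 23 tested, 4 were lower (17.4%, against 8.26% of all features) and 0 higher, and 15 had a log2 fold change below 0.

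The called features stood where ND3 (a complex I subunit), COX2 (a cytochrome c oxidase subunit), ATP8 (an ATP synthase subunit) and tRNA-Tyr lie. ND3 had 689 and 614 CPM in controls and 269 and 310 CPM after aspirin (-1.17 ± 0.30, edgeR adjusted p = 0.0261). COX2 had 4247 and 3293 CPM against 1809 and 1816 CPM (-1.06 ± 0.33, adjusted p = 0.0463). ATP8 had 399 and 505 CPM against 228 and 191 CPM (-1.11 ± 0.35, adjusted p = 0.0475), and part of it overlaps ATP6. None of the 4 was called with the term for Y reads, with adjusted p from 0.0844 to 0.244. None was called without control replicate 1 or without aspirin replicate 1.

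The other protein-coding positions did not move together. COX1 and COX3, the other cytochrome c oxidase subunits, had log2 fold changes of -0.77 ± 0.38 and -0.66 ± 0.31 and were not called. ND4, a complex I subunit, had 421 and 850 CPM in controls and 1120 and 577 CPM after aspirin, and cytochrome b (CYTB, complex III) 1028 and 1146 CPM against 1261 and 856 CPM, so their groups overlapped. The 16S rRNA position had 319001 and 322068 CPM in controls and 121548 and 161585 CPM after aspirin (-1.18 ± 0.45, edgeR adjusted p = 0.0827). At the 12S rRNA position, aspirin replicate 1 had 64594 CPM and the other 3 libraries 26570 to 44120 CPM. Neither ribosomal position was called.

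**Figure D4:**
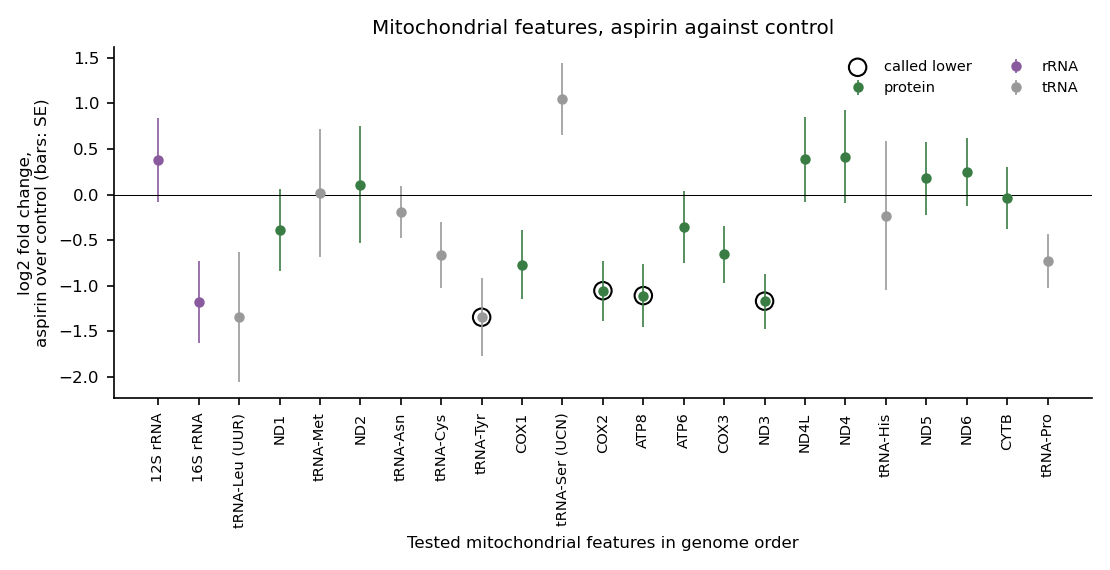
Log2 fold change of aspirin over control with its SE (bars) for the 23 tested mitochondrial features in genome order, colored by kind, with black circles around the 4 called lower. COX2, ATP8, ND3 and tRNA-Tyr lie between -1.35 and -1.06, while ND4L, ND4, ND5 and ND6 lie above 0 without being called.

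Calls were uneven over feature length, the summed length of the exons. Among features of 351 to 1000 nt, 4.40% were higher and 12.5% lower, with a median log2 fold change of -0.29. Between 3001 and 5000 nt, 14% were higher and 5.41% lower. Over 8000 nt, 19.2% of 339 tested features were higher and 1.77% lower, with a median of 0.36. When each library's trend of counts with length was removed, 40 of those 339 were higher and 27 lower, against 65 and 6 before, and over all features 1540 were higher and 1535 lower. RNA quality values are not given, and their part in the length trend was not tested.

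Level and chromosome also divided the calls. At an average log2 CPM from 6 to 8, 4.89% of features were higher and 20.6% lower, and from 0 to 2, 12.4% were higher and 4.36% lower. On chromosome X 4.04% of 544 tested features were higher and 14.9% lower, while on chromosome 12 13.4% were higher and 4.60% lower. With the term for Y reads, 4 features of chromosome X were higher and 13 lower.

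**Figure D5:**
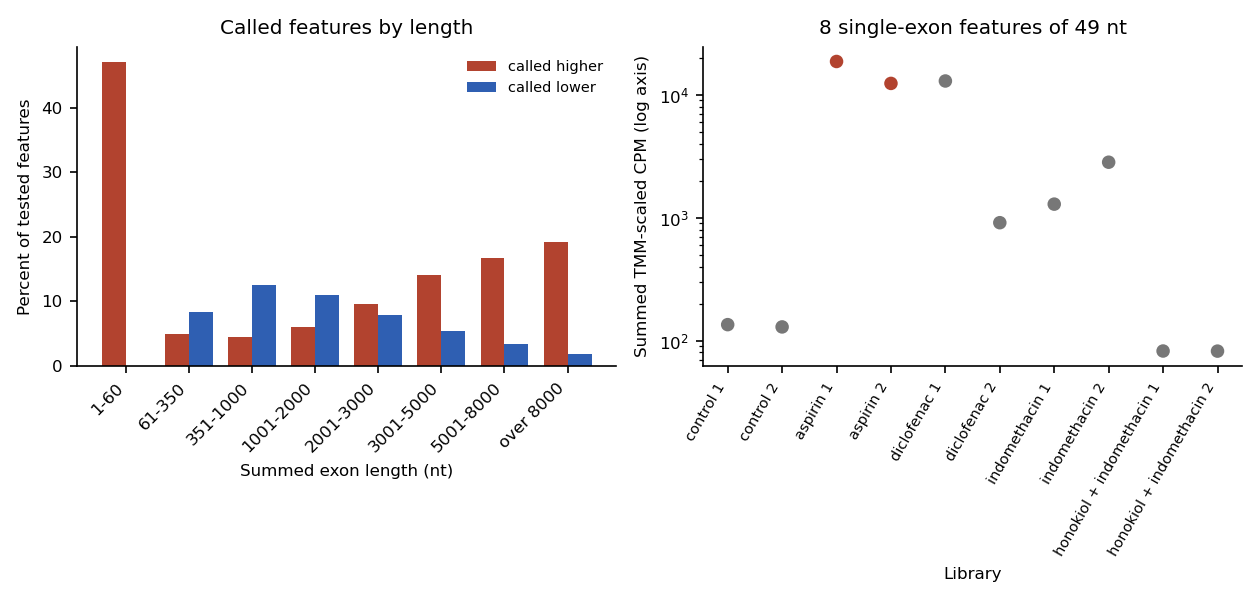
Left, bars give the percent of tested features called higher (red) and lower (blue) after aspirin in each class of summed exon length (nt); right, points give the summed TMM-scaled CPM of the 8 single-exon features of 49 nt in each of the 10 libraries on a log axis, aspirin in red. From 351 nt upward the share called higher climbs from 4.40% to 19.2% and the share called lower drops from 12.5% to 1.77%; the aspirin libraries lie at 18676 and 12383 CPM and the controls at 135 and 129 CPM.

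A smaller set was called in 1 direction in the group-only fit, with the term for Y reads, and without each of the 4 aspirin and control libraries in turn. It holds 261 features, 208 higher with a median log2 fold change of 2.13 and 53 lower with a median of -1.49. It contains 2 of the 12 leading rises and 8 of the 12 leading falls. These fits share libraries, so the set describes how calls held up and is no further evidence for them.

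Among its rises was a 7-exon feature of chromosome 1 (72635267 to 72643255), from 0.0947 and 0.134 CPM to 4.60 and 12.8 CPM (6.22 ± 0.57, edgeR adjusted p = 0.000879). A single-exon feature of chromosome 10 (106975178 to 106976040) rose from 0.474 and 0.568 CPM to 16.6 and 31.1 CPM (5.51 ± 0.48, adjusted p = 0.000879). On chromosome 18 (27657628 to 27661429) a 2-exon feature rose from 0.916 and 1.44 CPM to 26 and 42.6 CPM (4.87 ± 0.55, adjusted p = 0.00313). In all 3, both aspirin libraries lay far above both controls. A 16-exon feature of chromosome 5 (144031402 to 144051600) had aspirin values close together, 4.67 and 5.85 CPM against 0.221 and 0.0668 CPM in controls (5.14 ± 0.55, adjusted p = 0.00127).

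Its falls include 7 of the 105 tested single-exon nuclear features of 251 to 310 nt, against 53 of all 16346 tested features. They lie on chromosomes 3, 5, 9, 10 and 12 and include the 270-nt pair of chromosome 12, which may share reads. The largest of the 7 falls was at 78979883 to 78980166 of chromosome 9, with 2.56 and 1.97 CPM in controls and 0.221 and 0.237 CPM after aspirin (-3.28 ± 0.53, edgeR adjusted p = 0.00563). An 8-exon feature of the same chromosome (27402381 to 27417023) fell from 45.9 and 25.7 CPM to 8.50 and 11 CPM (-1.88 ± 0.28, adjusted p = 0.00464).

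Aspirin was also set against the other drugs directly, at the doses of the study, which differ between drugs. Against diclofenac, 0 of 16346 features were called (0.0%) with edgeR, 852 had an unadjusted p under 0.05, and DESeq2 called 7. Without aspirin replicate 2 edgeR called 4. This does not show that the drugs act alike. The first leading rise had 1.99 and 6.79 CPM with aspirin and 7.80 and 8.93 CPM with diclofenac, a log2 difference of -0.91 ± 0.45 (SE). For the first leading fall, aspirin had 2.39 and 1.80 CPM and diclofenac 1.72 and 1.71 CPM, a difference of 0.27 ± 0.26. The 30-exon feature of chromosome 1 had 14.5 and 8.38 CPM with aspirin and 9.37 and 0.452 CPM with diclofenac, so 1 diclofenac library lay within the aspirin range and the other far below it.

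Against indomethacin 3 features were called (0.0184%) with edgeR, all lower with aspirin, while DESeq2 called 439. Y-chromosome counts were 4438 and 2 in the indomethacin libraries, and no term for Y reads was fitted to this comparison. Without aspirin replicate 2 edgeR called 570, without either control 5, and without aspirin replicate 1 it called 2. Of these 3, 2 belong to the leading falls. The 274-nt feature of chromosome 3 had 13.7 and 10 CPM with indomethacin, near its control level, and 2.39 and 1.80 CPM with aspirin (-2.51 ± 0.25, edgeR adjusted p = 0.00755). The 9-exon feature of chromosome 2 had 60 and 50 CPM with indomethacin and 12.6 and 8.85 CPM with aspirin (-2.36 ± 0.28, adjusted p = 0.0251). The 270-nt pair of chromosome 12 showed differences of -2.51 ± 0.38 and -2.36 ± 0.36 with an adjusted p of 0.0583 for both. Among the rises, the 30-exon feature of chromosome 1 had 0.112 and 0.257 CPM with indomethacin against 14.5 and 8.38 CPM with aspirin, and was not called (5.91 ± 1.54, adjusted p = 0.158).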

How the data were processed

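RNA of rat gastric mucosa was sequenced in 10 libraries of 5 groups. Ribo-Zero removed ribosomal RNA from total RNA before stranded paired-end library preparation, per the labels' protocols. The authors deposited whole-number counts per gene, not normalized, and per the file headers their columns are those of featureCounts. Per the submitters' processing notes, HISAT2 2.1.0 and featureCounts were used, besides cutadapt 1.16, FastQC 0.11.7, bcl2fastq, SAMtools and DESeq2. Not given in the sources used here are the genome build, the counter's strand setting and how it treated reads with several matches.

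Counts were tested in R 4.3.3 with edgeR 4.0.16, by its quasi-likelihood F test (TMM factors, filterByExpr with minimum count 10 and minimum total 15, robust moderation, group only). All 10 libraries entered the fit, with 5 residual degrees of freedom. Calls took an adjusted p under 0.05 (Benjamini-Hochberg). Each standard error is the size of the log2 fold change divided by the square root of F, and CPM values were computed from the deposited counts. Intervals are exact at 95%. The fit was also run on simulated counts, with changes planted only in features well counted in controls and an equal spread for all features. That simulation does not cover features with few or no control counts, unequal replicates or differences in Y reads. The chi-square of replicate counts divided by its degrees of freedom was 81.1 for controls and 77.5 for aspirin, above sampling noise.

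The naming rule took the 12 largest rises and falls among called features whose average log2 CPM reached 1 and whose groups did not overlap. Without symbols it allowed 2 identifiers per direction, and the other features given by position, run or length were chosen after their values were seen. The 57 gene lists and the markers prepared could not be applied without names. The comparison, lists and tests were chosen with earlier results of these data known. DESeq2 1.42.0, RLE factors, other filters, a replicate block, terms for Y reads and length, and fits without single libraries were alternatives.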

Additional observations from a re-analysis of the deposited data

Results flagged for a closer look

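In 3 features aspirin differed from indomethacin in edgeR's direct test of the drugs. Indomethacin replicate 1 held 4438 counts on the 7 Y-chromosome features, replicate 2 held 2, and both aspirin libraries 0. The term for Y reads was not fitted for this comparison. The 274-nt feature of chromosome 3 (75024206 to 75024479) was lower with aspirin than with indomethacin by a log2 difference of -2.51 ± 0.25 (SE, adjusted p = 0.00755, n = 2 libraries each). For the 9-exon feature of chromosome 2 (243502073 to 243516532) the difference was -2.36 ± 0.28 (adjusted p = 0.0251). The third, a 24-exon feature of chromosome 7 (14529482 to 14574361), had 0.379 and 0.234 CPM in controls, 0.331 and 0.0473 CPM with aspirin and 6.11 and 4.29 CPM with indomethacin, a difference of -4.92 ± 0.62 (adjusted p = 0.0301). It was not called between aspirin and control (-0.86 ± 0.73, adjusted p = 0.413).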

How the results depend on the processing

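The 2903 calls (1553 higher, 1350 lower) ranged from 462 to 3606 (higher 334 to 1769, lower 69 to 1837) when 1 control or aspirin library was left out, where the lone library is assumed to vary like the other groups. A term for Y reads gave 683 calls (484 higher, 199 lower), and libraries without Y reads alone gave 184 (167 and 17). The 4 control and aspirin libraries alone gave 1759 calls, 489 of them lower. A log2 change of at least 1 left 1811 calls, 583 of them lower, and no low-count filter gave 2467 higher. With a replicate block 863 features were lower and 1243 higher. Replicate deviations from the group mean correlated at r = -0.104 between aspirin and control, and at -0.263 to 0.298 over all pairs of groups. Whether libraries of 1 replicate number share more than that number cannot be told from these values. The crossed pairing gave 2302 calls (1306 higher, 996 lower). Against diclofenac, DESeq2 called 7 features, no filter 140, and fits without 1 library 0 to 4. Against indomethacin they called 439, 1414 and 2 to 570. The cause of these shifts was not tested, beyond the fewer libraries or features that some settings hold by construction. Of 36 named features followed over 17 other settings, 0 changed sign, and 7 of the 34 called were called in each that gave a value. The first leading rises had few or no control counts, so their folds are bounds or wide intervals.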
